A study of Arabidopsis thaliana with 16 samples.

Results

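The Aux/IAA repressors and the auxin response factors (ARFs) of *Arabidopsis thaliana* leaves were followed across 4 groups of plants. The set holds 44 genes of the 27827 in the table, namely 29 Aux/IAA genes and 15 ARF genes (ARF1 to ARF11 and ARF16 to ARF19), and each was found by its locus, without use of its level. Steady-state transcript levels were measured in leaf RNA on 16 microarrays, 4 for each group. All plants were Col-0, the wild-type ecotype, grown on soil for 6 weeks with 8 h of light and 16 h of dark per the labels, while the methods give a slightly longer light period. The methods give all groups the same age at harvest, and the labels do not give the age of the well-watered plants at harvest. The control was wild type kept well watered. The other groups were wild type deprived of water for 10 days and 2 well-watered knock-down lines, amiNaa10 and amiNaa15. These lines carry an artificial microRNA, driven by the constitutive CaMV35S promoter, against *NAA10* or *NAA15*, the catalytic and the auxiliary subunit of the N-terminal acetyltransferase NatA. A single transgenic line is named for each knock-down, so the genotype and the line cannot be told apart. Knock-down plants under drought were not analysed here. The labels call the samples biological replicates without saying which plants entered each.

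Auxin signalling works by the removal of a repressor. At low auxin, Aux/IAA proteins bind the ARF transcription factors on the promoters of auxin-responsive genes and recruit TOPLESS (TPL) co-repressors. Auxin joins Aux/IAA proteins to the TIR1 and AFB receptors of an SCF ubiquitin ligase, the repressors are degraded by the proteasome, and the ARFs are released. Many Aux/IAA genes are themselves auxin targets, as are *GH3* genes, whose products conjugate auxin to amino acids, and *SAUR* genes, which are linked to cell expansion. ARF5, ARF6, ARF7, ARF8 and ARF19 activate transcription, and the other ARFs are grouped as repressors. In leaves the pathway is known for its part in blade expansion and vein formation. Because Aux/IAA proteins are controlled largely by their degradation, transcript levels describe only a part of the pathway's state.

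Values are log2 signals, so that a difference of 1 is a doubling, and values of 4 arrays are listed in the order of the replicate number. The sorted values were identical on all arrays (mean 5.32, highest 14.0), arrays within a group correlated with r from 0.971 to 0.991, and signals below 3 were taken as near background. On average 6 of the 44 genes lay below 3, namely *IAA6*, *IAA15*, *IAA20*, *IAA30*, *IAA31* and *IAA34*. The targeted genes were checked first. *NAA10* was 6.63, 6.59, 6.88 and 6.58 in the control and 5.16, 5.28, 4.92 and 5.01 in amiNaa10. On the arrays labelled amiNaa15 it was 5.16 and 5.06 in replicates 1 and 2 but 6.89 and 6.86 in replicates 3 and 4. *NAA15* was 9.00 to 9.20 in the control, 9.68 and 9.54 in replicates 1 and 2 labelled amiNaa15, and 7.97 and 7.80 in replicates 3 and 4. Replicates 1 and 2 thus went against their label, every array was kept under its label, and for the genes named here, calls of the amiNaa15 group that ended without these arrays are given as such. The leaf label was met by the 6 mesophyll markers, whose mean was 9.76 or higher on every array although *CAB2* was near background, whereas the mean of the 5 root markers stayed between 2.94 and 3.61.

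A gene was called changed when limma's adjusted p, over all genes of the table, was below 0.05 and the change exceeded 1.5-fold. Of the 44 genes, 14 were called in at least 1 comparison with the control and 30 in none, and *IAA29* was the only gene called in all 3. In amiNaa10, *IAA4* and *IAA29* rose and *IAA28* fell, which is 6.82% of the members against 5.37% of all genes (2.45% higher and 2.92% lower). On the arrays labelled amiNaa15, *IAA2*, *IAA29* and *ARF19* rose, again 6.82% against 4.67% of all genes (2.09% higher and 2.58% lower). Both shares were near the background. In drought 12 members (27.3%) were called against 13.4% of all genes (6.27% higher and 7.15% lower). Of these *IAA18*, *IAA26*, *IAA28*, *IAA29*, *ARF2*, *ARF10*, *ARF11* and *ARF19* rose, and *IAA7*, *IAA8*, *IAA17* and *IAA33* fell. The median change of the 44 genes was -0.12 in amiNaa10 and 0.00 for the arrays labelled amiNaa15, and in drought it was 0.16, where the medians of all genes were 0.02, 0.01 and 0.03. The 3 comparisons share the 4 control arrays. Of the 14 called genes, 3 (*IAA28*, *IAA29* and *ARF19*) were called both in drought and in a knock-down group. *IAA29* and *ARF19* rose in each comparison that called them, and *IAA28* had opposite directions in amiNaa10 and in drought. The other called genes were each called in a single comparison, so their directions cannot be compared by calls.

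**Figure D1:**
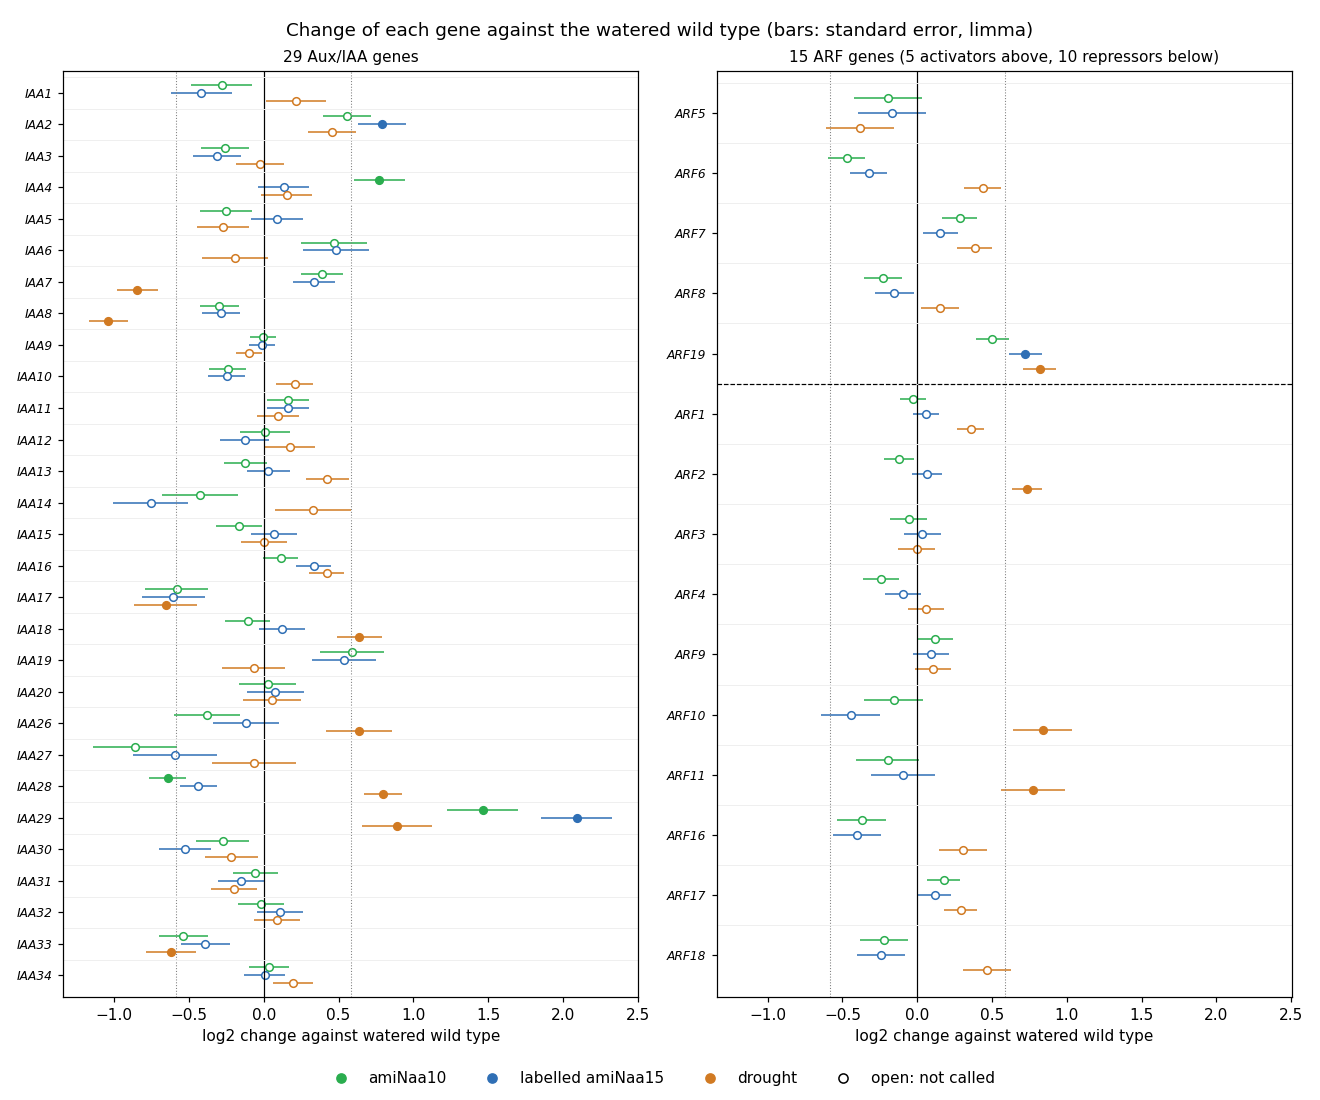
Fitted log2 change of each of the 29 Aux/IAA genes (left) and 15 ARF genes (right) against the well-watered wild type, for amiNaa10, the arrays labelled amiNaa15 and drought, with standard errors as bars, called genes filled and dotted lines at 1.5-fold. *IAA29* lies to the right in all 3 comparisons, *IAA28* lies left for the knock-downs and right for drought, and 13 of the 15 ARF genes lie above 0 in drought.

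*IAA29* (AT4G32280) showed the largest fitted rise of the 44 genes in each of the 3 comparisons with the control. It codes for an Aux/IAA protein known as a target of phytochrome-interacting factors in the shade response of seedlings. Its signal was 4.50, 4.73, 3.75 and 3.92 in the control and 5.84, 5.97, 5.77 and 5.18 in amiNaa10. It was 6.47, 6.57, 5.87 and 6.38 on the arrays labelled amiNaa15 and 5.45, 5.22, 4.70 and 5.11 in drought. All knock-down arrays were above all control arrays, while the lowest drought array (4.70) was just below the highest control array (4.73). *IAA29* rose by 1.46 ± 0.24 (SE, n = 4) in amiNaa10 with an adjusted p of 0.00496 in limma, which is 2.76-fold. On the arrays labelled amiNaa15 it rose by 2.09 (adjusted p 0.000317, 4.26-fold), and by 1.89 without replicates 1 and 2. In drought it rose by 0.89 (adjusted p 0.0116, limma). All 3 calls were kept when each of the 16 arrays was left out in turn. The 5 phytochrome-interacting factor genes examined (*PIF1*, *PIF3*, *PIF4*, *PIF5* and *PIF7*) gave no call against the control in limma (none at an unadjusted p below 0.05 with 1.5-fold change). Their part in the change of *IAA29* was not tested.

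*IAA2* (AT3G23030) and *IAA4* (AT5G43700) are early auxin-inducible members of the family, and each was called in a single knock-down group. *IAA2* was 8.26, 8.37, 8.43 and 8.54 in the control, 8.88, 9.36, 8.72 and 8.86 in amiNaa10, 9.48, 9.39, 8.88 and 9.02 on arrays labelled amiNaa15, and 9.03, 8.58, 8.99 and 8.84 in drought. Every array of the other groups was thus above every control array, although the change passed 1.5-fold only on the arrays labelled amiNaa15 (0.79 ± 0.16 SE, adjusted p 0.00821, limma). It was 0.56 in amiNaa10 and 0.46 in drought. Without the arrays labelled amiNaa15 replicates 1 and 2 it was 0.55 and *IAA2* was no longer called. *IAA4* was 3.83, 3.79, 3.60 and 3.44 in the control and 4.49, 4.80, 4.06 and 4.42 in amiNaa10, with no overlap. It rose by 0.77 (adjusted p 0.016, limma), but not without amiNaa10 replicate 2 (0.66, adjusted p 0.0612). The arrays labelled amiNaa15 (3.66 to 3.98) and drought (3.31 to 4.05) overlapped the control for *IAA4*. Neither gene was called between the knock-downs.

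*IAA28* (AT5G25890), a repressor of lateral root initiation known from a stabilised mutant, was called in opposite directions in amiNaa10 and in drought. The control arrays were tight at 5.87, 5.84, 5.82 and 5.86. In amiNaa10 the signals were 4.98, 5.36, 5.13 and 5.36, and on the arrays labelled amiNaa15 they were 5.30, 5.36, 5.73 and 5.24, all below the control. In drought they were 6.46, 6.62, 6.64 and 6.86, all above the control. *IAA28* fell by 0.64 ± 0.12 (SE, n = 4) in amiNaa10 (adjusted p 0.00949, limma), a call that was lost without amiNaa10 replicate 1, when the fall of 0.57 was less than 1.5-fold. The change on the arrays labelled amiNaa15 was -0.44 (adjusted p 0.0433, limma), under the fold minimum. In drought *IAA28* rose by 0.80 (adjusted p 0.000341, limma), and this call was kept without each array.

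**Figure D2:**
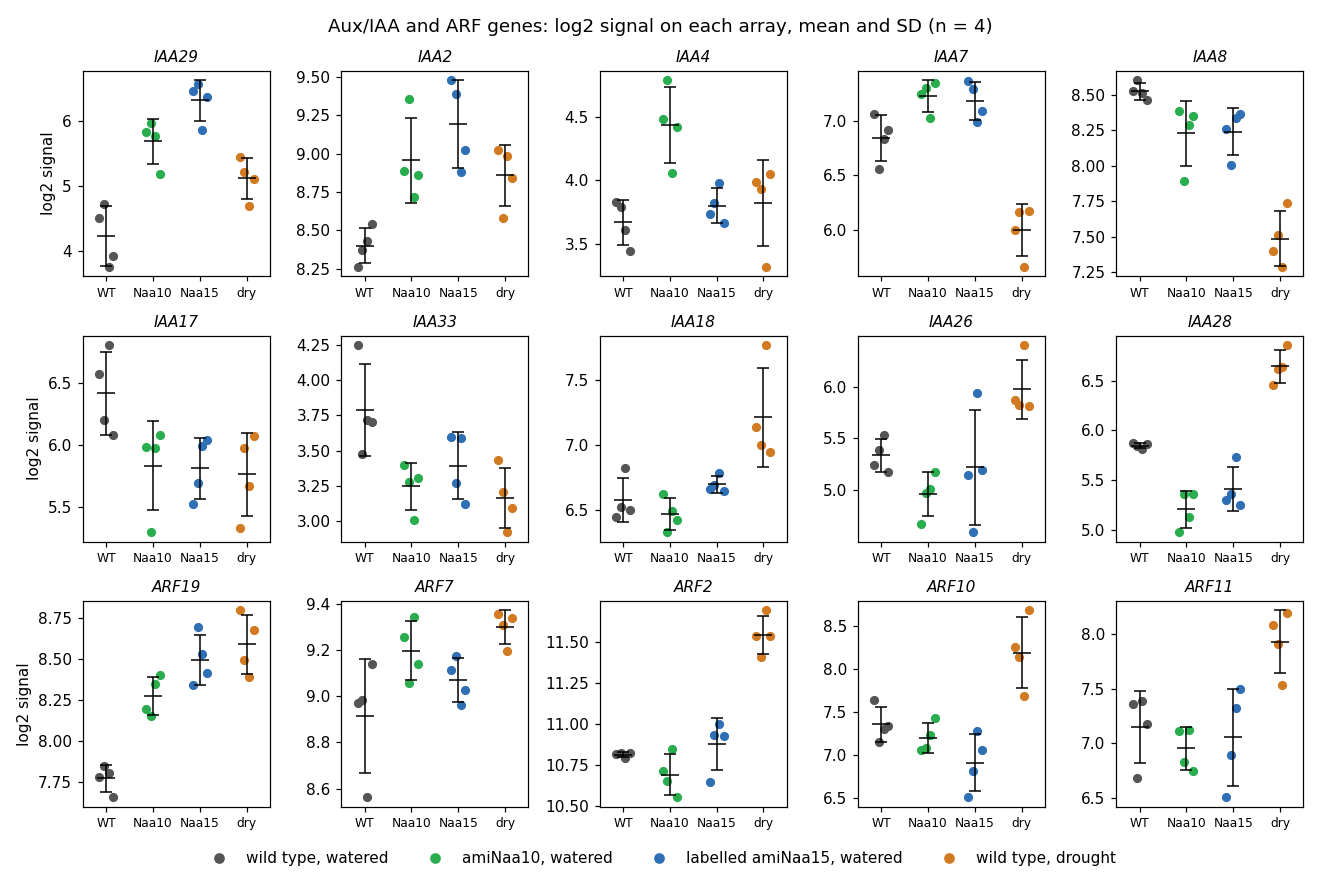
Log2 signal of 15 Aux/IAA and ARF genes on each of the 16 arrays by group (points, replicates 1 to 4 from left to right), with the group mean (horizontal mark) and SD (bars, n = 4); each panel has its own axis and levels are not comparable between genes. *IAA7*, *IAA8*, *IAA28*, *ARF2*, *ARF10* and *ARF11* in drought stand apart from all other groups, while the means of *IAA29*, *IAA2* and *ARF19* are higher in the other groups than in the well-watered wild type.

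The largest falls in drought were those of *IAA8* and *IAA7*. *IAA8* (AT2G22670) is a long member of the family, and *IAA7* (AT3G23050) is the gene of the auxin-resistant mutant *axr2*. *IAA8* was 8.52, 8.60, 8.51 and 8.46 in the control and 7.40, 7.51, 7.29 and 7.74 in drought, with the knock-down arrays between 7.89 and 8.38. It fell by 1.04 ± 0.13 (SE, n = 4, adjusted p 5.84e-05, limma), which is 2.05-fold. *IAA7* was 7.07, 6.56, 6.83 and 6.92 in the control and 6.00, 6.17, 5.66 and 6.17 in drought. It fell by 0.84 (adjusted p 0.000519, limma). Its values in amiNaa10 (7.02 to 7.35) and on the arrays labelled amiNaa15 (6.99 to 7.36) overlapped the control, with fitted changes of 0.39 and 0.34 that were not called. Both falls in drought were called whichever array was left out.

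*IAA17* (AT1G04250), the gene of the auxin-resistant mutant *axr3*, and *IAA33* (AT5G57420), which codes for a member without the usual degradation motif, also fell in drought, but less firmly. *IAA17* was 6.58, 6.21, 6.81 and 6.08 in the control and 5.33, 5.98, 5.67 and 6.07 in drought, and 5.30 to 6.08 on the knock-down arrays. Its fall of 0.65 (adjusted p 0.0321, limma) was not called without control replicates 1 or 3 or drought replicates 1 or 3, with adjusted p up to 0.112. The fitted changes of *IAA17* were -0.58 for amiNaa10 and -0.61 for the arrays labelled amiNaa15, and neither was called. *IAA33* was 4.25, 3.48, 3.72 and 3.70 in the control and 3.43, 3.21, 2.92 and 3.10 in drought, close to background. Its fall of 0.62 (adjusted p 0.0119, limma) shrank to 0.47 without control replicate 1 and to 0.54 without drought replicate 3, both less than 1.5-fold.

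*IAA18* and *IAA26*, repressors whose transcripts rose in drought, were close to a threshold. *IAA18* (AT1G51950) was 6.45, 6.53, 6.83 and 6.50 in the control and 7.14, 7.00, 7.77 and 6.95 in drought. Without drought replicate 3 its rise of 0.64 (adjusted p 0.00614, limma) was 0.45 and under the fold minimum. *IAA26* (AT3G16500) was 5.24, 5.39, 5.54 and 5.18 in the control and 5.87, 5.82, 6.40 and 5.82 in drought. The groups did not overlap, but the adjusted p of 0.0447 (limma) exceeded 0.05 when any of 11 of the 16 arrays was left out. The change was then 0.50 without drought replicate 3 (adjusted p 0.134) and 0.59 to 0.69 without any of the other arrays. When each array was left out in turn, 8 to 12 of the 44 genes were called in drought, with 8 without drought replicate 3. Other arrays also cost calls, and without control replicate 1 *IAA17*, *IAA26* and *IAA33* were not called.

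Other large fitted changes in the knock-downs did not pass the test. *IAA27* (AT4G29080) was 7.25, 7.50, 7.29 and 7.09 in the control, 6.12, 5.92, 6.91 and 6.72 in amiNaa10, 6.57, 6.41, 7.42 and 6.35 on arrays labelled amiNaa15, and 6.50, 7.47, 7.17 and 7.72 in drought. The amiNaa10 arrays were all below the control, with a fitted change of -0.86 (adjusted p 0.0709, limma). *IAA27* was called there without amiNaa10 replicate 3 (-1.03, adjusted p 0.0462, limma). It was also called without the array labelled amiNaa15 replicate 3 (adjusted p 0.0408) or drought replicate 1 (adjusted p 0.0494, both limma). Without amiNaa10 replicate 2 the change was -0.70 (adjusted p 0.219, limma). *IAA14* (AT4G14550), the SOLITARY-ROOT gene whose product represses ARF7 and ARF19 in lateral root founder cells, was 6.33, 5.86, 6.83 and 6.20 in the control. It was 4.77, 5.64, 5.99 and 5.78 on the arrays labelled amiNaa15, 5.51 to 6.09 in amiNaa10 and 6.31 to 6.96 in drought. Its fitted change for the arrays labelled amiNaa15 was -0.76 (adjusted p 0.0793, limma), and it was -0.50 without replicate 1 and -0.42 without replicates 1 and 2. *IAA14* was called there without replicate 3 (-0.90, adjusted p 0.0406) and without replicates 3 and 4 (-1.10, adjusted p 0.0311, both limma). *IAA19* (AT3G15540), a gene of seedling tropisms, was 2.92 to 3.30 in the control, 3.42 to 3.97 in amiNaa10, 2.96 to 4.20 on the arrays labelled amiNaa15 and 2.83 to 3.23 in drought. Its fitted change of 0.59 in amiNaa10 had an adjusted p of 0.0969 in limma. That change was called without the array labelled amiNaa15 replicate 3 (adjusted p 0.0356) and without replicates 3 and 4 (adjusted p 0.0369, both limma). Without amiNaa10 replicate 2 it was 0.50 (adjusted p 0.259, limma). For the arrays labelled amiNaa15 the change was 0.54 (adjusted p 0.133, limma), and 0.19 without replicates 1 and 2. *IAA19* was called there without replicate 3 (0.77, adjusted p 0.0137) and without replicates 3 and 4 (0.88, adjusted p 0.0147, both limma). Unlike *IAA33*, the members *IAA20*, *IAA30*, *IAA31*, *IAA32* and *IAA34*, in which the usual degradation motif is also missing or altered, gave no call in any comparison. All of these except *IAA32* had mean signals below 3, near background. Of all genes, 81.5% were called in none of the 3 comparisons with the control. *IAA9*, a close relative of *IAA8*, had fitted changes between -0.10 and 0.00 in the 3 comparisons with the control.

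Members that lie close together on a chromosome did not always move alike. In the gene order of TAIR10.1, *IAA2* and *IAA7* on chromosome 3, *IAA3* and *IAA17* on chromosome 1, and *IAA14* and *IAA1* on chromosome 4 each have 1 gene between them. In drought *IAA7* fell by 0.84 while *IAA2* had a fitted change of 0.46. *IAA17* fell by 0.65, and *IAA3* had a fitted change of -0.03 (adjusted p 0.936, limma). Neither *IAA14* (0.33) nor *IAA1* (0.22) was called in drought. These differences within pairs were not tested.

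The ARF genes that were called in drought all rose. In drought 13 of the 15 had a fitted change above 0, with a median of 0.36, and 4 (26.7%) were called higher, where 6.27% of all genes were called higher. The knock-down medians were -0.16 and -0.10. Among the 10 repressor ARFs, 9 were above 0 in drought and *ARF2*, *ARF10* and *ARF11* were called. *ARF2* (AT5G62000) codes for a repressor known for its part in leaf senescence and organ size. It was 10.81, 10.82, 10.79 and 10.82 in the control and 10.71, 10.65, 10.85 and 10.55 in amiNaa10. It was 10.64, 10.93, 11.00 and 10.93 on the arrays labelled amiNaa15, and 11.54, 11.41, 11.69 and 11.54 in drought. The drought arrays lay above all others, and *ARF2* rose by 0.73 ± 0.10 (SE, n = 4, adjusted p 0.000138, limma), kept without each array.

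*ARF10* (AT2G28350), a target of microRNA miR160 together with *ARF16* and *ARF17*, was 7.63, 7.15, 7.29 and 7.33 in the control and 8.26, 8.14, 7.69 and 8.69 in drought. It rose by 0.84 (adjusted p 0.00532, limma), while the knock-down arrays lay between 6.50 and 7.43 and overlapped the control. *ARF16* (0.31) and *ARF17* (0.29) were not called in drought. *ARF11* (AT2G46530), a less studied repressor, was 7.36, 6.68, 7.39 and 7.18 in the control and 8.08, 7.91, 7.53 and 8.19 in drought. Its rise of 0.78 (adjusted p 0.0142, limma) was lost without control replicate 2 (adjusted p 0.0517). *ARF1* (0.36, adjusted p 0.00748) and *ARF18* (0.47, adjusted p 0.0452) passed limma's p but not the fold minimum. *ARF3*, *ARF4* and *ARF9* had fitted changes between 0.00 and 0.11 in drought.

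The genes of the small RNAs that cleave auxin transcripts were examined beside their targets. The array measures the primary transcripts, not the mature small RNAs. Of 11 such genes, 4 (36.4%) were called in drought, where 13.4% of all genes were, and 1 (9.09%) in amiNaa10, where 5.37% were. On arrays labelled amiNaa15 none was called (1 at an unadjusted p below 0.05 with 1.5-fold change), where 4.67% of all genes were. *MIR160C*, a gene of the microRNA that targets *ARF10*, *ARF16* and *ARF17*, was 3.83, 3.87, 4.61 and 4.35 in the control and 5.69, 5.84, 5.84 and 6.31 in drought. It rose by 1.76 (adjusted p 1.22e-05, limma), 3.38-fold. *MIR160C* and its target *ARF10* thus rose together, while *MIR160A* and *MIR160B*, genes of the same microRNA, were not called in drought. *TAS3*, the source of the trans-acting small RNAs against *ARF2*, *ARF3* and *ARF4*, was 6.03, 6.28, 5.46 and 5.59 in the control and 3.86, 4.47, 3.60 and 4.58 in drought. It fell by 1.71 (adjusted p 0.00015, limma), while *ARF2* rose and *ARF3* and *ARF4* were not called.

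*MIR393B*, a gene of the microRNA against the auxin receptors, was 4.22, 4.22, 4.74 and 3.75 in the control and 6.47, 6.30, 5.61 and 6.75 in drought. It rose by 2.05 (adjusted p 5.94e-05, limma), 4.14-fold. Of its receptor targets none was called, with fitted changes of -0.09 for *TIR1* and 0.31 for each of *AFB2* and *AFB3*. *MIR390A*, a gene of the microRNA that directs cleavage of *TAS3*, rose by 0.62 in drought (adjusted p 0.0334, limma), a call lost when any of 5 arrays was left out. Its signals of 2.01 to 2.64 in the control and 2.52 to 3.23 in drought were near background. *MIR167B*, from the family against *ARF6* and *ARF8*, rose by 0.75 in amiNaa10 (adjusted p 0.0303, limma), a call also lost for 5 arrays. *ARF6* and *ARF8* had fitted changes of -0.47 and -0.23 there. *MIR167A* (5.73 to 6.33 in the control, 5.83 to 6.27 in amiNaa10) and *MIR167D* (6.57 to 7.37 and 7.07 to 7.25) of the same family were not called. The drought calls of *MIR160C*, *TAS3* and *MIR393B* were kept without each array.

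Among the 5 activator ARFs, only *ARF19* was called against the control. ARF19 and ARF7 act together in lateral root formation. *ARF19* (AT1G19220) was 7.78, 7.85, 7.81 and 7.66 in the control, 8.20, 8.15, 8.35 and 8.40 in amiNaa10, 8.34, 8.70, 8.53 and 8.42 on arrays labelled amiNaa15, and 8.80, 8.50, 8.39 and 8.68 in drought. All 12 arrays of the other groups were above the control. *ARF19* rose by 0.82 ± 0.11 (SE, n = 4) in drought (adjusted p 0.000127, limma) and by 0.72 on the arrays labelled amiNaa15 (adjusted p 0.00202, limma), or by 0.70 without replicates 1 and 2, and was called there too. In amiNaa10 its change of 0.50 (adjusted p 0.0157, limma) was under the fold minimum.

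*ARF7* (AT5G20730) was 8.97, 8.98, 8.56 and 9.14 in the control, 9.26, 9.06, 9.34 and 9.14 in amiNaa10, 9.12, 9.18, 8.96 and 9.03 on arrays labelled amiNaa15, and 9.36, 9.31, 9.20 and 9.34 in drought. The knock-down arrays overlapped the control and the drought arrays did not. Its fitted change was 0.28 in amiNaa10 (adjusted p 0.148, limma) and 0.15 for the arrays labelled amiNaa15 (adjusted p 0.457, limma). In drought it was 0.39 (adjusted p 0.0239, limma), under the fold minimum, so that *ARF7* was not called in any group. *MYB77*, whose product interacts with ARF7, was 7.90, 7.86, 6.72 and 7.62 in the control, 7.08, 6.53, 6.69 and 6.94 in amiNaa10, 6.10, 6.17, 5.99 and 6.48 on arrays labelled amiNaa15, and 4.43, 4.73, 4.89 and 5.13 in drought. *MYB77* fell by 2.73 in drought (adjusted p 4.62e-06, limma), 6.64-fold, and by 1.34 on the arrays labelled amiNaa15 (adjusted p 0.00358, limma). Without replicates 1 and 2 the latter was -1.29 and not called. In amiNaa10 its fitted change was -0.71 (adjusted p 0.0671, limma), and the groups overlapped. *ARF5*, known as MONOPTEROS in embryo and vein patterning, had a fitted change of -0.38 in drought (adjusted p 0.255, limma).

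Several other measurements moved with drought. Of 16 clock genes, 7 (43.8%) were called in drought, 6 of them higher, where 13.4% of all genes were called. The mean over the clock list was 6.79 to 7.00 on the control arrays and 7.21 to 7.47 on the drought arrays. On the arrays labelled amiNaa15 the 4 clock genes *TOC1*, *PRR5*, *PRR3* and *ELF3* rose (25% of the list, where 4.67% of all genes were called). Without replicates 1 and 2 only *PRR3* (1.29) was called, while *TOC1* was 0.35, *PRR5* 0.57 and *ELF3* 0.82, and *PRR5* lost its call for 10 of the 16 arrays left out singly. In amiNaa10 no clock gene was called in limma (none at an unadjusted p below 0.05 with 1.5-fold change). Of the 4 markers of dividing cells 3 fell in drought, and the mean of the 4 was 4.06 to 4.81 in the control and 3.27 to 3.69 in drought. The call of *CDKB1;1*, 1 of these 3, was lost without control replicate 1 or drought replicate 1 or 4 (adjusted p up to 0.0759, limma). Of the 6 mesophyll markers *RBCS1B* and *CA1* fell, while the other 4 were not called and 1 of these had a fitted change above 0 (0.13). The mean of the 6 mesophyll markers was 10.5 to 10.9 in the control and 9.76 to 10.3 in drought. Of 6 markers of vascular tissue *XCP1* fell by 1.06 and *IRX5* fell by 0.69 in drought, while 2 had a fitted change above 0 (up to 0.27). The call of *IRX5* was lost when control replicate 1, 2 or 3 or drought replicate 1 or 4 was left out. The mean of the 6 vascular markers was 6.10 to 6.77 in the control and 5.97 to 6.26 in drought. The part of these genes in the changes of the auxin genes was not tested, and in whole leaves fewer cells of a type and less RNA per cell cannot be told apart.

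Whether the knock-downs differed from drought was tested directly, as a difference that does not use the control mean, so that the control arrays entered only through the shared variance. Of the 44 genes, 16 (36.4%) were called between amiNaa10 and drought, where 17.3% of all genes were called (9.11% higher), and 14 (31.8%) between the arrays labelled amiNaa15 and drought, where 13.7% were (7.14% higher). The ARF genes were called in 1 direction only. *ARF2*, *ARF6*, *ARF10*, *ARF11*, *ARF16* and *ARF18* were lower than in drought in both comparisons, 6 of 15 genes, where 8.17% and 6.57% of all genes were called lower. *ARF6* (AT1G30330), an activator of flower and stem growth, was 9.09, 9.17, 9.09 and 9.12 in the control. In drought *ARF6* was 9.78, 9.58, 9.44 and 9.42, in amiNaa10 8.71, 8.35, 8.91 and 8.61, and on arrays labelled amiNaa15 8.72, 8.76, 9.02 and 8.67. The control thus lay between drought above and the knock-downs below. *ARF6* was 0.91 ± 0.12 (SE, n = 4) lower in amiNaa10 than in drought (log2 difference -0.91, adjusted p 6.66e-05, limma) and 0.76 lower on the arrays labelled amiNaa15 (log2 difference -0.76, adjusted p 0.000406, limma). Against the control neither its -0.47 in amiNaa10 nor its 0.44 in drought reached 1.5-fold.

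**Figure D3:**
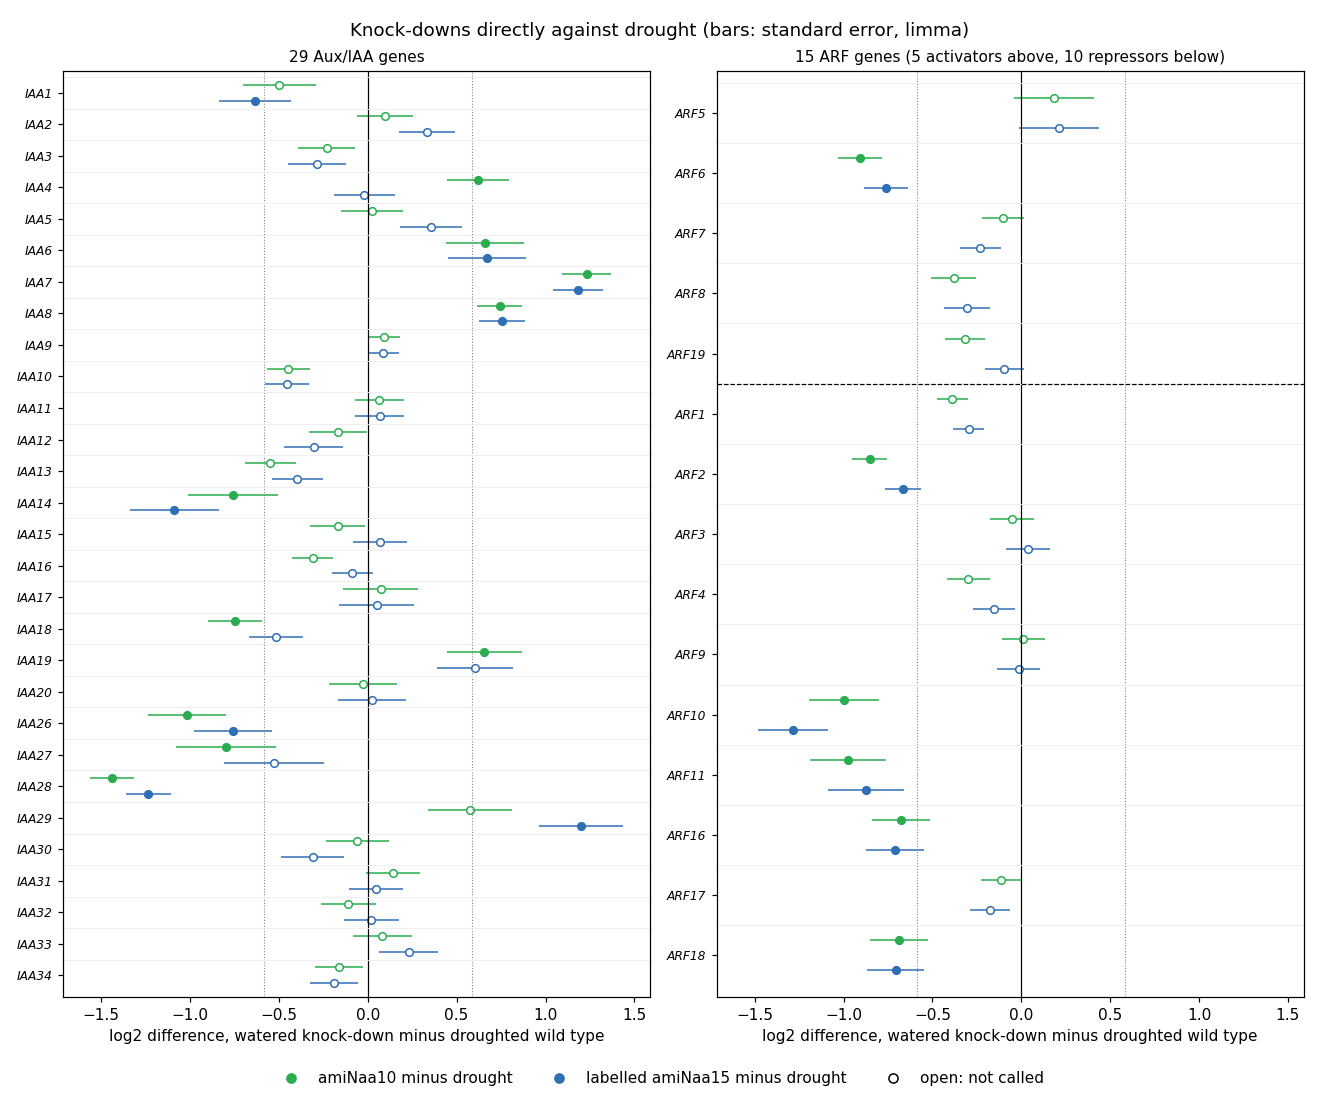
Fitted log2 difference of each gene between the well-watered knock-downs and the droughted wild type (knock-down minus drought), with standard errors as bars, called genes filled and dotted lines at 1.5-fold. *IAA7* and *IAA8* lie to the right and *IAA28*, *ARF2*, *ARF6*, *ARF10*, *ARF11*, *ARF16* and *ARF18* to the left for both lines, and *IAA29* is called only for the arrays labelled amiNaa15.

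The Aux/IAA genes were called in both directions against drought. *IAA7* was 1.23 higher in amiNaa10 (adjusted p 1.71e-05, limma). It was 1.18 higher for the arrays labelled amiNaa15 (adjusted p 3.34e-05, limma), and *IAA8* was 0.74 and 0.75 higher. *IAA6* was also called higher in both, by 0.66 and 0.67, but its signals of 2.01 to 3.40 were near background and each call was lost when any of 5 arrays was left out. *IAA4* and *IAA19* were called higher in amiNaa10 only, and *IAA29* on the arrays labelled amiNaa15 only (1.20, adjusted p 0.00176, limma). *IAA28* had the largest difference of the 44 genes between amiNaa10 and drought, -1.44 ± 0.12 (SE, n = 4, adjusted p 2.06e-06, limma), which is 2.71-fold. For the arrays labelled amiNaa15 it was -1.23 (adjusted p 8.49e-06, limma), next to -1.28 for *ARF10* (adjusted p 0.000246, limma). *IAA14* and *IAA26* were lower in both, *IAA18* and *IAA27* in amiNaa10 and *IAA1* on arrays labelled amiNaa15.

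The differences of *IAA7*, *IAA8*, *IAA28*, *ARF2*, *ARF6*, *ARF10*, *ARF11* and *ARF18* in both comparisons, and of *IAA29* for the arrays labelled amiNaa15, kept their call whichever array was left out. The difference of *IAA27* between amiNaa10 and drought (-0.80, adjusted p 0.0442, limma) was near the threshold, and its call was lost for 10 of 16 arrays. Of these, 5 belong to other groups, and without any of them the difference was still -0.80 (adjusted p 0.051 to 0.0536). Without any of the 5 arrays of amiNaa10 or drought it was -0.63 to -0.81, with adjusted p up to 0.134. Without drought replicate 3, 11 members were called between amiNaa10 and drought. Without the arrays labelled amiNaa15 replicates 1 and 2, 8 of the 14 were called, and *ARF2* (-0.58), *ARF11* (-0.52), *ARF18* (-0.51), *IAA6* (0.22), *IAA14* (-0.75) and *IAA26* (-0.41) were not.

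Between amiNaa10 and the arrays labelled amiNaa15 none of the 44 genes was called in limma, as for all genes (0% called). At an unadjusted p below 0.05 with a 1.5-fold change 2 members passed, *IAA4* (0.64 higher in amiNaa10) and *IAA29* (log2 difference -0.63), and 1.29% of all genes did. Since replicates 1 and 2 labelled amiNaa15 carried low *NAA10*, this comparison does not separate the 2 knock-downs as labelled.

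Other genes of the pathway were counted by role. For comparison, 5.37% of all genes were called in amiNaa10, 4.67% for the arrays labelled amiNaa15 and 13.4% in drought. Lists this short are expected to hold few called genes or none at the knock-down shares. None of 11 receptor and SCF genes and none of 5 TPL co-repressor genes was called against the control in limma (none at an unadjusted p below 0.05 with 1.5-fold change). Of 8 *GH3* genes, 3 (37.5%) were called in drought, 2 (25%) for the arrays labelled amiNaa15 and 1 (12.5%) in amiNaa10. *GH3.5*, whose enzyme conjugates auxin and salicylic acid to amino acids, was 6.93, 6.98, 6.90 and 6.54 in the control, 7.93, 8.47, 7.90 and 8.18 in amiNaa10, 8.65, 8.79, 8.28 and 8.83 on arrays labelled amiNaa15, and 8.38, 8.67, 8.21 and 9.05 in drought. Every array of the other groups was above the control. *GH3.5* rose by 1.28 (adjusted p 0.00296), 1.80 (adjusted p 0.000221) and 1.74 (adjusted p 1.97e-05, all limma), kept without each array. *GH3.3*, an early auxin response gene, was 5.97, 6.18, 6.41 and 5.63 in the control, 6.38, 8.03, 6.88 and 7.10 in amiNaa10, 8.73, 8.36, 7.33 and 7.17 on arrays labelled amiNaa15, and 5.54, 6.08, 5.96 and 5.92 in drought. It rose by 1.85 on the arrays labelled amiNaa15 (adjusted p 0.00601, limma), but without replicates 1 and 2 the change was 1.21 and not called. In amiNaa10 its fitted change was 1.05 (adjusted p 0.075, limma). In drought *GH3.3* had a fitted change of -0.17, and the direct difference between the arrays labelled amiNaa15 and drought was 2.02 (adjusted p 0.000658, limma). Between amiNaa10 and drought it was 1.22 (adjusted p 0.0148, limma), a call that was lost without amiNaa10 replicate 2 (0.91, adjusted p 0.0519). In drought *GH3.6* rose by 0.83 and *GH3.9* fell by 1.29. The call of *GH3.6* was lost when control replicate 1, 2 or 4 or drought replicate 1, 2 or 4 was left out (adjusted p up to 0.11, limma).

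**Figure D4:**
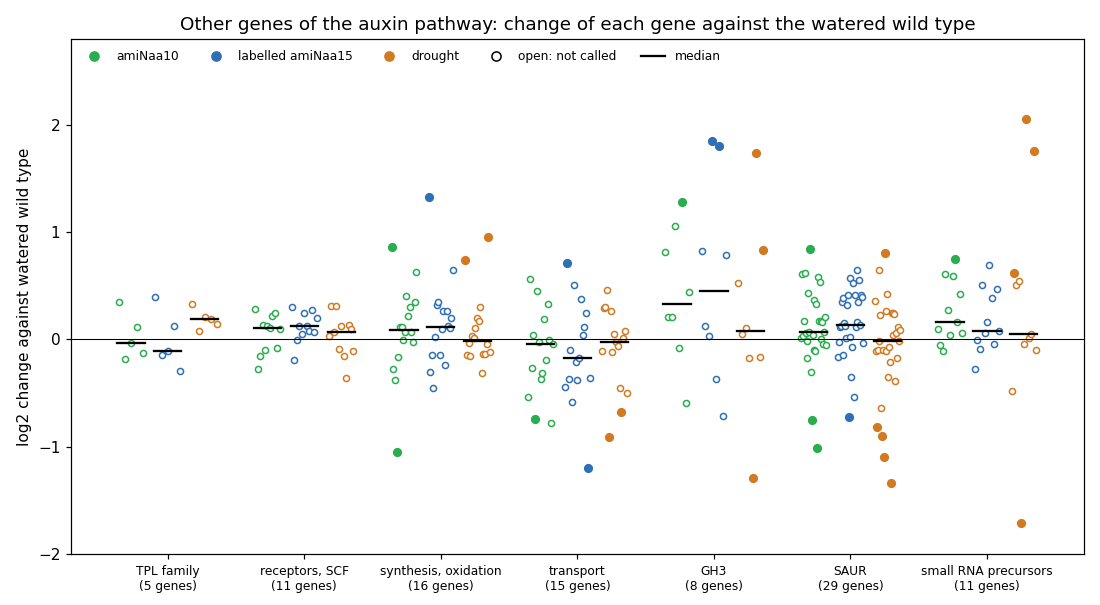
Fitted log2 change of each gene in 7 lists of other auxin-pathway genes against the well-watered wild type, for amiNaa10, the arrays labelled amiNaa15 and drought; called genes are filled and black lines are list medians. No receptor, SCF or TPL gene is filled, and the largest rise is that of *MIR393B* (2.05) and the largest fall that of *TAS3* (-1.71), both in drought.

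Of 29 *SAUR* genes, 3 (10.3%) were called in amiNaa10 (*SAUR6* higher, *SAUR9* and *SAUR32* lower). For the arrays labelled amiNaa15, 1 (3.45%) was called (*SAUR32* lower). In drought 5 (17.2%) were called (*SAUR36* higher, *SAUR6*, *SAUR9*, *SAUR63* and *SAUR78* lower). Of all genes, 5.37%, 4.67% and 13.4% were called in these comparisons. In each group, 11 of the 29 *SAUR* genes had a mean signal below 3, near background. For the arrays labelled amiNaa15 the call of *SAUR32* was lost for 10 of 16 arrays, and without replicates 1 and 2 the change was -0.49 (adjusted p 0.419, limma). *SAUR6* thus had opposite directions, a rise of 0.84 in amiNaa10 (adjusted p 0.0311, limma) that was lost for 5 of 16 arrays, and a fall of 1.10 in drought (adjusted p 0.00206, limma). The direct difference of *SAUR6* between amiNaa10 and drought was 1.94 (adjusted p 1.75e-05, limma). Its signals were 3.09 to 4.07 in the control and 2.14 to 2.55 in drought, where they were near background. Of 16 genes of auxin synthesis and oxidation, 2 (12.5%), 1 (6.25%) and 2 (12.5%) were called. *YUC9*, which codes for a flavin monooxygenase of auxin synthesis, rose by 0.86, 1.33 and 0.74, and *YUC6* of the same family rose by 0.95 in drought, while AT1G14130 fell by 1.05 in amiNaa10. *YUC9* lost its call without any of 3 arrays in amiNaa10 and without control replicate 2 or drought replicate 3 in drought. Of 15 transport genes, 1 (6.67%), 2 (13.3%) and 2 (13.3%) were called. On the arrays labelled amiNaa15 the efflux carrier gene *PIN3* rose by 0.71 and *PIN5* fell by 1.20. Neither was called without replicates 1 and 2 (0.71, adjusted p 0.0647, and -0.79, adjusted p 0.345, limma). The influx carrier gene *LAX3* fell by 0.74 in amiNaa10 (lost for 6 of 16 arrays) and by 0.91 in drought, and *LAX1* fell by 0.68 in drought, though not without drought replicate 3.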

How the data were processed

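Log2 signals were deposited by the authors, who made them from the scanned intensities with RMA background correction and quantile normalization and a custom probe annotation (version 16) with TAIR gene definitions. The TAIR release is not given in the sources used here, so no coordinates are printed. No sequences were used here. Symbols were taken from RefSeq's TAIR10.1 gene table, which held the loci of all 44 members; the names *NAA10* and *NAA15* are the paper's.

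The members and all gene lists were chosen with earlier results of these data known. From the deposited log2 values, 1 mean per group was fitted over all 16 arrays (12 residual degrees of freedom) in limma 3.58.1 (R 4.3.3). Variances were moderated, and the p-values of each comparison were adjusted over all 27827 genes by Benjamini-Hochberg. A call needed an adjusted p under 0.05 together with a change above 1.5-fold, and 2 genes of constant signal were never called. The p-values measure the spread between arrays, whose number limits the precision. The design follows the methods, which name an analysis of variance with false discovery rate correction. All 44 members may be named. Values on every array are given for members called against the control, for the 3 largest changes in each direction per comparison with the control, and for *ARF7*. *ARF6* and the pathway genes with values on every array were added after their values were seen. Of other lists, at most the 3 largest called rises and falls per comparison are named, and *SAUR78* and *SAUR63* in drought make 4 falls with *SAUR6* and *SAUR9*.

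The alternatives, described in the closing section, were other thresholds, limma's treat, no moderation, 2 groups only, a replicate block, 2 other normalizations, array weights, no dim genes, and arrays left out. Figures were drawn with Python 3.11.15 and matplotlib 3.10.9.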

Additional observations from a re-analysis of the deposited data

Results flagged for a closer look

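In 3 of the 72 groups of 4 arrays examined (18 members), a single array stood apart from the others by Dixon's criterion, which by chance happens in about 1 in 20 groups. *IAA4* was 3.31 in drought replicate 3, where the nearest other drought array was 3.93. *IAA26* was 6.40 in the same array, with the nearest other at 5.87, and the call of *IAA26* in drought was lost without this array. *IAA17* was 5.30 in amiNaa10 replicate 2, with the nearest other amiNaa10 array at 5.98.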

How the results depend on the processing

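Of 21 called or named member changes against the control, none of the 609 values under the alternatives reversed its direction. The counts of called members depended on the thresholds. For amiNaa10 against the control (3 members), an unadjusted p gave 5, no fold minimum 6, a 2-fold minimum 1 and treat 0. For the arrays labelled amiNaa15 against the control (3), an unadjusted p gave 5, a 2-fold minimum 1, treat 1, and leaving out replicates 3 and 4 labelled amiNaa15 gave 6. For drought against the control (12), no fold minimum gave 19, a 2-fold minimum 1 and treat 0. Against drought, a 2-fold minimum gave 3 for amiNaa10 (16) and 5 for the arrays labelled amiNaa15 (14), treat gave 2 in each, and leaving out replicates 1 and 2 labelled amiNaa15 gave 8 for the latter. Between the knock-downs (0) an unadjusted p gave 2. Leaving out each array in turn gave 2 to 5 members in amiNaa10 (2 without amiNaa10 replicates 1 or 2, 5 without amiNaa10 replicate 3 or the array labelled amiNaa15 replicate 3), 3 to 5 on the arrays labelled amiNaa15 (5 without its replicate 3), 8 to 12 in drought, 11 to 17 and 12 to 15 in the comparisons with drought, and 0 to 0 between the knock-downs. In a fit with a replicate block the counts were 3, 3, 12, 15, 14 and 0. Same-numbered arrays deviated from their group means with correlations between -0.195 and 0.322, and not every array correlated best with its own number. Replicate 3 of both knock-down groups correlated best with control replicate 3 (0.171 and 0.263), while their other replicates matched a control array of another number. The labels do not say whether same-numbered arrays were handled together, and these correlations cannot decide it. Genes that stayed below a log2 signal of 3 are near background, where changes are compressed.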
